A study of Mus musculus with 24 samples.

Results

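The 34 genes described here are genes of Kupffer cells, monocytes and neutrophils, taken by symbol from a count table of 24421 genes in mouse liver. They comprised 12 Kupffer cell genes, 3 chains of complement C1q, 11 genes of myeloid cells in general, 2 monocyte genes and 6 neutrophil genes. All 34 had a row in the table, and 33 passed the filter on low counts, with 13833 genes tested in all. Mmp8, the neutrophil collagenase, did not pass, with 0 to 11 reads per library. The study measured polyA RNA from the medial lobe of the liver of C57BL/6 mice that had received MitoCDNB, a chlorodinitrobenzene carried into mitochondria by a lipophilic cation, or vehicle alone. Mice were injected with MitoCDNB at 5 mg/kg or with vehicle (0.1% ethanol), and liver was taken after either 1 h or 4 h, which made 4 groups of 6 mice. No source used here states their age or sex. The tissue was whole liver and no cells were sorted, so for every gene below fewer cells of a type and less RNA per cell cannot be told apart.

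Kupffer cells are the macrophages that live in the sinusoids of the liver, where they clear particles, bacteria and spent red cells from portal blood. They carry scavenger and complement receptors, are maintained through the colony stimulating factor 1 receptor, and express the chains of complement C1q. Neutrophils and monocytes reach the liver with the blood, where neutrophils are rich in the calcium-binding proteins S100a8 and S100a9 and classical monocytes carry the chemokine receptor Ccr2.

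Total counts per library ran from 25.1 M to 37.2 M, with a mean of 30.3 M (M, mega). Levels are given as CPM, counts divided by a library size that TMM factors had scaled and brought to a common total, and 3 counts, the floor of detection used here, came to between 0.0843 and 0.122 CPM. The summed level of 8 hepatocyte genes was 47000 to 72600 CPM in all libraries, and each Kupffer cell gene had counts in all 24. The brain genes Snap25, Gria2 and Mobp had counts in each of the 6 libraries of 1 h with replicate numbers 4 to 6. They had counts in 0 of the other 18 libraries. Cd14, S100a8 and S100a9 at 1 h are therefore also given within replicates 1 to 3 and 4 to 6. Log2 values of other single genes at 1 h are not split in this way. For the genes described here, vehicle replicate 4 of 4 h stood apart, and results of 4 h are given with and without it.

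Per kilobase of exon, the most abundant of the 34 genes in vehicle at 1 h were C1qa, at 35.9 CPM per kb (mean, n = 6; 30.6 to 41.5), Cd5l, at 33.4 (28.8 to 40.1), and Clec4f, at 32.0 (26.1 to 36.4). C1qa is a chain of the recognition unit of the classical complement pathway, Cd5l a secreted scavenger receptor protein, and Clec4f a lectin of mouse Kupffer cells. These ranges overlap, so the order among them lies within the spread over libraries. C1qb (28.6), the lysozyme gene Lyz2 (27.5) and C1qc (17.5) followed. The lowest were Mmp8 (0.0586), Ccr2 (0.106), the chemokine receptor Cxcr2 (0.125) and Irak3 (0.155), an inhibitor of Toll-like receptor signalling. Between the chains of C1q, CPM ratios within a library varied little: C1qb to C1qa was 0.706 to 0.93 in the 24 libraries, with a median of 0.828, and C1qc to C1qa was 0.819 to 1.01. These ratios are not corrected for exon length, which was 1.04 kb for C1qa, 1.09 kb for C1qb and 1.93 kb for C1qc.

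**Figure D1:**
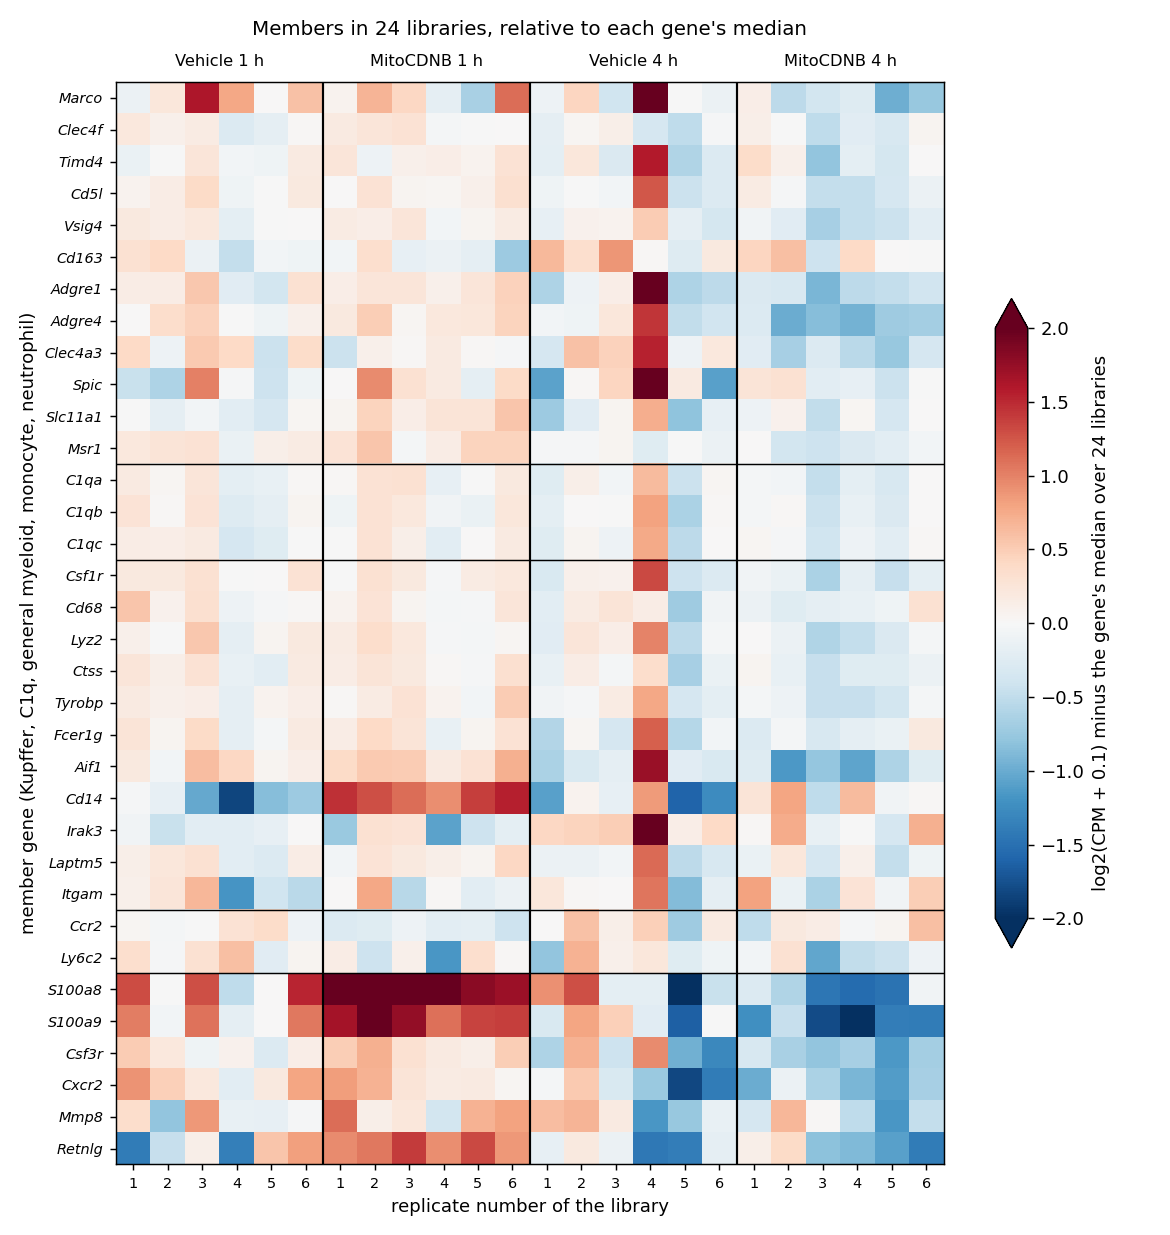
Level of each of the 34 genes (rows, grouped by role) in the 24 libraries (columns, by group and replicate number), as log2(CPM + 0.1) minus the gene's median over the 24 libraries (colour, limited at 2 in each direction). Vehicle replicate 4 of 4 h is red in most macrophage rows, most strongly for Marco, Adgre1, Spic and Irak3, and not for Clec4f or Msr1. Cd14, S100a8 and S100a9 are red in all 6 MitoCDNB libraries of 1 h.

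In vehicle replicate 4 of 4 h, 23 of the 34 genes were above the other 5 libraries of the group, and 22 were above all other 23 libraries. Marco, a scavenger receptor for bacteria, stood at 90.8 CPM there and at 2.97 to 5.31 CPM in the other 5, which is 24.8 times their median. The macrophage adhesion receptor Adgre1 (F4/80) was at 66.5 against 8.32 to 14 CPM, 7.47 times the median. Spic, a transcription factor of iron-recycling macrophages, was at 6.78 against 0.343 to 1.16 CPM, and Irak3 at 7.08 against 0.733 to 0.969 CPM. These 4 genes showed the largest ratios, and 16 of the 34 were at 2 times the median or more. Aif1 (4.24 times), an actin-bundling protein of macrophages, Cd14 (3.93), Timd4 (3.73), a receptor for phosphatidylserine, and Csf1r (3.05) were among them. Other Kupffer cell genes were not raised in that library: Clec4f was at 61.7 CPM (0.806 times the median of the other 5), the haemoglobin scavenger receptor Cd163 at 14.8 CPM (0.801 times) and the scavenger receptor Msr1 at 7.03 CPM (0.86 times). The ratio of Marco to Clec4f was 1.47 there and 0.0282 to 0.141 in the other 23 libraries, and that of Adgre1 to Clec4f was 1.08 there and 0.116 to 0.225 elsewhere. S100a8, S100a9, Cxcr2, Ccr2 and Ly6c2 lay within the range of the other 5. The remaining neutrophil genes went both ways. Csf3r was at 5.03 CPM (0.996 to 4.23 in the other 5), above all other 23 libraries. Mmp8 (0.0, against 0.0333 to 0.26 CPM) and Retnlg (0.0281, against 0.0333 to 0.297 CPM) were below the other 5 and under the floor of 3 counts.

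Other lists also differed in that library. The summed level of 4 B cell genes was 5.26 CPM (0.52 to 1.61 in the other 5), that of 11 dendritic cell genes 55.0 CPM (85.6 to 114), and that of 8 hepatocyte genes 47000 CPM (55900 to 66500). The 7 red cell genes summed to 645 CPM (393 to 899) and 12 endothelial genes to 356 CPM (316 to 376), within the range of the other 5. Of all genes in the table, 62 reached 2 CPM and more than 2 times the highest other library there, 7 of them from the 34 (Marco, Timd4, Adgre1, Spic, Csf1r, Aif1 and Irak3). In each of the other 23 libraries this number was 0 to 23 and included 0 of the 34. The part of these other cell types in the levels was not tested.

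**Figure D2:**
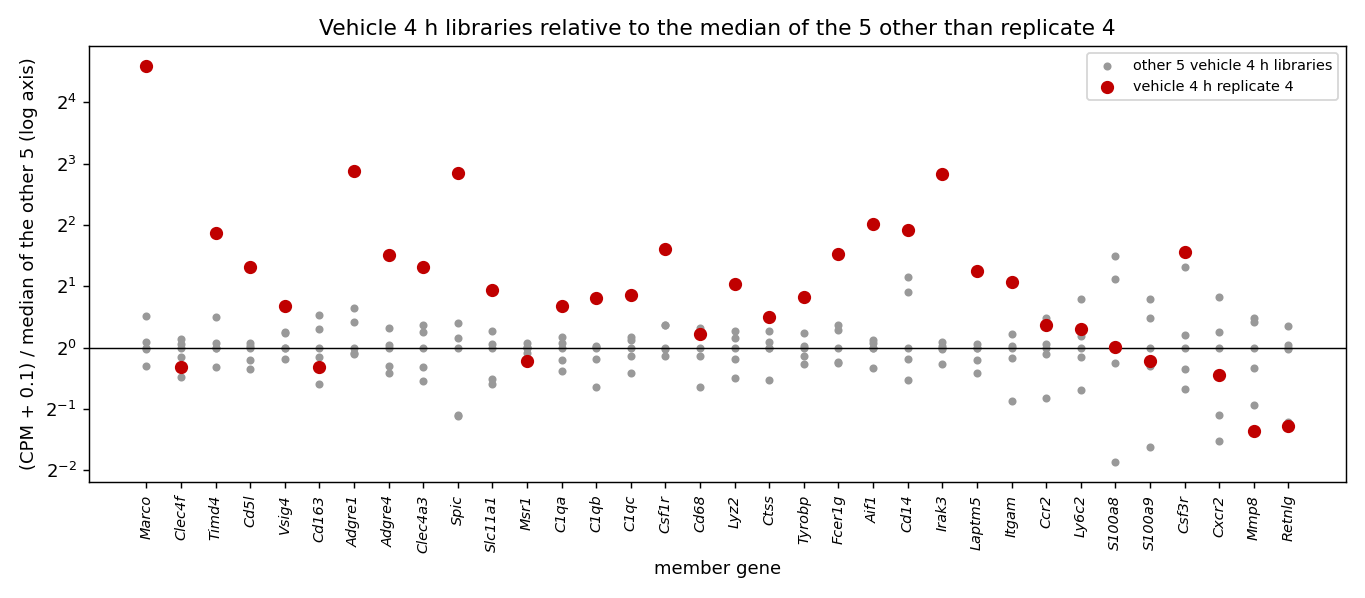
Level of each of the 34 genes in the vehicle libraries of 4 h, as (CPM + 0.1) divided by the same for the median of the 5 libraries other than replicate 4 (log axis). Red points are replicate 4 and grey points the other 5; Marco, Adgre1, Spic and Irak3 are highest, and Clec4f, Cd163 and Msr1 lie just below 1.

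At 1 h, Cd14 was higher with MitoCDNB, and 3 neutrophil genes were higher in every MitoCDNB library without passing the test. Cd14, the co-receptor that hands bacterial lipopolysaccharide to Toll-like receptor 4, was at 1.24, 2.66 and 4.6 CPM (lowest, median and highest of 6) in vehicle and at 8.95, 11.9 and 13.9 CPM in MitoCDNB. The groups did not overlap, and the lowest MitoCDNB library was above the highest vehicle library. Cd14 rose 3.97-fold (log2 fold change 1.99, SE 0.351, adjusted p = 0.000812, quasi-likelihood test of edgeR over all genes). It was the only one of the 33 genes called in this comparison (adjusted p under 0.05), while 6.57% of all genes were called, 2.7% higher and 3.87% lower. Replicates 4 to 6 alone gave a log2 value of 2.41 (adjusted p = 0.0333). Replicates 1 to 3 alone gave 1.66, without a call (adjusted p = 0.131). Over the 14 alternatives that do not leave out a single library the adjusted p ran from 3.07e-06 to 0.131.

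Sequences before the start site are shown for S100a8 and S100a9, which did not overlap between the groups at 1 h and were called in the difference between the times, and for Adgre4 and Clec4a3, called at 4 h. They are from RefSeq on GRCm38.p6, 5′ to 3′ on the strand of the gene, with capitals for matches to the core of the PU.1 site, GAGGAA, or to a C/EBP pattern, TTNNGNAA, searched on both strands, which do not overlap here. S100a8 is shown at chr3:90668821-90668977 on the plus strand, which ends before the longest transcript of GENCODE M21, S100a9 at chr3:90695722-90695971 on the minus strand, Adgre4 at chr17:55749734-55749983 on the plus strand and Clec4a3 at chr6:122952265-122952514 on the plus strand, the first of its start sites.
S100a8: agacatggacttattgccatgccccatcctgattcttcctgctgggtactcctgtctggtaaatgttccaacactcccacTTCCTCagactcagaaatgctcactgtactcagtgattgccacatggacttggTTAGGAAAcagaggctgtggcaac
S100a9: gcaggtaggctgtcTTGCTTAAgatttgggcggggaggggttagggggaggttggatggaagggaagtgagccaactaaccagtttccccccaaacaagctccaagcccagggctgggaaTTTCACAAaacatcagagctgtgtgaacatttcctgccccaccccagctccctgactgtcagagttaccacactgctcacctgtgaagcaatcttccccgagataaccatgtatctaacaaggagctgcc
Adgre4: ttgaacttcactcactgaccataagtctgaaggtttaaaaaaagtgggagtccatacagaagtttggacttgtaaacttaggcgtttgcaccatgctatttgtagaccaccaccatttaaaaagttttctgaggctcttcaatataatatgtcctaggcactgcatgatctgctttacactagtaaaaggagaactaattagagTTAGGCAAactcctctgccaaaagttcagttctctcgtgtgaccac
Clec4a3: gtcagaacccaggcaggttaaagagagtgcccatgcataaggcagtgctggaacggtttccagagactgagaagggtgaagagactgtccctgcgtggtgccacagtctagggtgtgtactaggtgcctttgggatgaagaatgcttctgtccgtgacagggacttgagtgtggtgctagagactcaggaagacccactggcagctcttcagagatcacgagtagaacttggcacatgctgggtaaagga
The S100a8 stretch holds 1 PU.1 core on the minus strand, 170 bases before the start site, and 1 C/EBP match 117 bases before it. A further PU.1 core lies 36 bases before that start site, in the 93 bases not shown. The Clec4a3 stretch holds no match, while a PU.1 core lies 50 bases before the other start site of Clec4a3, which is not shown. In S100a9 C/EBP matches begin 236 and 130 bases before the start site, and in Adgre4 one begins 46 bases before it. The 250 bases before the start hold the PU.1 core in 23.3% of 32851 promoters of all genes and in 18 of the 31 promoters found for 28 of the genes described here. The C/EBP pattern is in 36.8% of all promoters and also in 18 of these 31. A match is a description of the letters and not a binding site.

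S100a8 and S100a9 code for the subunits of calprotectin, the main protein of the neutrophil cytosol, and lie near each other on chromosome 3 (90668978 to 90670035 and 90692632 to 90695721, GENCODE M21). At 1 h, S100a8 was at 0.585, 1.58 and 2.72 CPM in vehicle and at 3.11, 4.0 and 5.15 CPM in MitoCDNB (lowest, median and highest). S100a9 was at 0.999, 1.79 and 2.52 CPM in vehicle and at 2.56, 3.48 and 4.97 CPM in MitoCDNB. Neither gene overlapped between the groups, though for S100a9 the highest vehicle and the lowest MitoCDNB library were close. The log2 fold changes were 1.31 (SE 0.413, adjusted p = 0.0599) for S100a8 and 1.02 (SE 0.316, adjusted p = 0.0535) for S100a9, so neither passed the threshold. Without vehicle replicate 6 both did (adjusted p = 0.0417 and 0.0481), and without vehicle replicate 3 S100a9 did (0.0449). Over the 12 single omissions the adjusted p ran from 0.0417 to 0.139 for S100a8 and from 0.0449 to 0.129 for S100a9. Both were called by DESeq2 (adjusted p = 0.0283 and 0.0269) and by limma-voom (0.00299 and 0.00563). The log2 values within replicates 1 to 3 were 1.32 and 1.1, and within replicates 4 to 6 1.29 and 0.92, with no call in either.

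Retnlg, a resistin-like gene of neutrophils, was at 0.0311, 0.214 and 0.513 CPM in vehicle and at 0.529, 0.591 and 0.812 CPM in MitoCDNB at 1 h. The groups did not overlap, and the lowest vehicle libraries were under the floor of 3 counts. Its log2 fold change was 1.42 (SE 0.484, adjusted p = 0.0841), with a call only without vehicle replicate 6 among the 12 single omissions (adjusted p = 0.0366; range 0.0366 to 0.176). The other neutrophil genes tested, Csf3r (log2 0.29, adjusted p = 0.688), the receptor of granulocyte colony stimulating factor, and Cxcr2 (log2 -0.08, adjusted p = 0.959), overlapped between the groups. Slc11a1, a metal transporter of the phagosome, did not overlap (6.09 to 7.97 against 7.99 to 11.4 CPM) but was not called (log2 0.41, adjusted p = 0.216). In all, 5 of the 33 genes were higher without overlap, set beside 2.19% of all genes, and 0 were lower without overlap, set beside 2.54%.

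The 6 neutrophil genes summed to 4.65, 6.83 and 9.23 CPM in vehicle and to 10.4, 12 and 15.6 CPM in MitoCDNB at 1 h (lowest, median and highest), with no overlap. The sum includes S100a8, S100a9 and Retnlg, which did not overlap singly, and Csf3r, Cxcr2 and Mmp8, which overlapped. The sums of 20 other neutrophil genes overlapped, at 210 to 355 CPM in vehicle and 187 to 346 CPM in MitoCDNB. The 8 of these that were tested had a median log2 value of 0.13, with 4 below 0. The sums of the 20 genes were far larger than those of the 6 genes. Reads were uneven among the 20, Mpo having 0 counts in 5 libraries of each group at 1 h. Which cells made the reads of the 20 genes was not tested. The 7 red cell genes were at a median of 579 CPM in vehicle (469 to 1200) and 1050 CPM in MitoCDNB (619 to 1150), and the 6 platelet genes at 3.65 (2.57 to 4.11) and 4.28 CPM (3.94 to 4.97). Of the 5 red cell genes tested, edgeR and DESeq2 called none, 2 had an unadjusted p under 0.05, and limma-voom called 2. The part of blood content in the sum of the 6 neutrophil genes was not tested.

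Cd14 apart, none of the Kupffer cell, C1q or general myeloid genes was called at 1 h. Which cells of the liver made the Cd14 reads was not tested. Of the 12 Kupffer cell genes none was called by edgeR, DESeq2 or limma-voom, 1 had an unadjusted p under 0.05, and their log2 values ran from -0.28 (Marco) to 0.41 (Slc11a1). In each comparison DESeq2 gave an adjusted p for 31 of the 33 genes, with none for Marco and Adgre1. The C1q chains were at 0.03 to 0.09, and none of the 3 was called by any of the 3 tools or had an unadjusted p under 0.05. Of the general myeloid genes other than Cd14, the values ran from -0.06 (Cd68, Irak3) to 0.21 (Aif1). The monocyte genes Ccr2 (log2 -0.39, adjusted p = 0.397) and Ly6c2 (log2 -0.34, adjusted p = 0.678) were not called. Ly6c2 has a near-identical neighbour, Ly6c1, which is expressed in endothelium, so reads could have been split between them. The median log2 value of the 33 genes was 0.09, with 10 below 0, beside 0.0 and 49.3% below 0 for all genes.

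**Figure D3:**
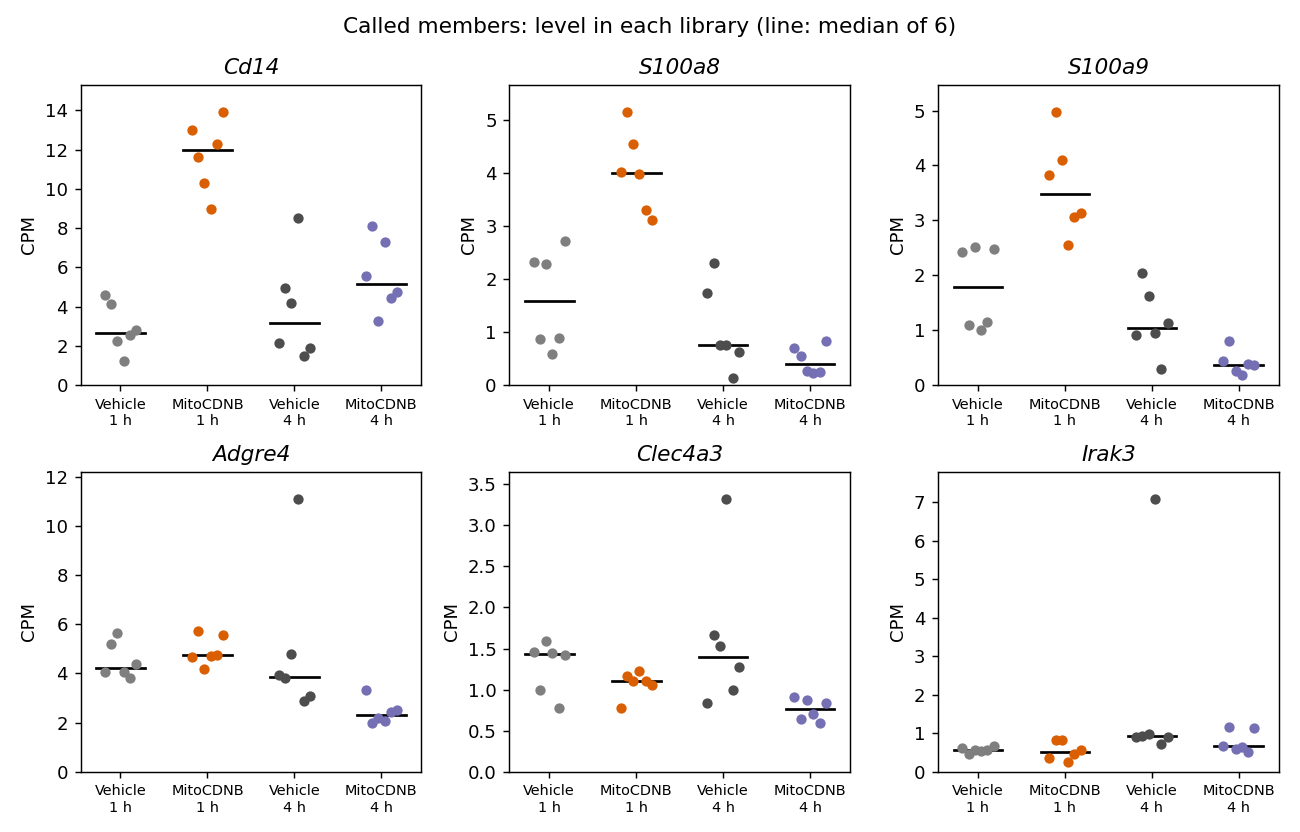
CPM of the 6 genes called in any comparison in each library (points) by group, with the median of 6 as a line; each axis starts at 0. In MitoCDNB at 1 h Cd14 is between 8.95 and 13.9 CPM, above all vehicle libraries of 1 h, and in Adgre4, Clec4a3 and Irak3 vehicle replicate 4 of 4 h is the highest point.

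At 4 h, the calls among the 33 genes were 2, both lower in MitoCDNB and both with vehicle replicate 4 in the comparison. Adgre4, an adhesion receptor of macrophages related to Adgre1 (chromosome 17, 55749984 to 55853662), was at 2.86, 3.88 and 11.1 CPM in vehicle and at 1.99, 2.32 and 3.34 CPM in MitoCDNB. The highest MitoCDNB library was above the lowest vehicle libraries, and vehicle replicate 4 alone was above 4.78 CPM. Adgre4 fell by 1.04 on the log2 scale (SE 0.243, adjusted p = 0.0413). Clec4a3, a lectin-like receptor (chromosome 6, 122952515 to 122969875), was at 0.836, 1.4 and 3.32 CPM in vehicle and at 0.595, 0.77 and 0.904 CPM in MitoCDNB. Here too the groups overlapped, with vehicle replicate 4 the highest and the next at 1.67 CPM. Clec4a3 fell by 1.09 (SE 0.259, adjusted p = 0.0426). It belongs to a family of closely related lectin genes, and how reads shared between them were counted is stated in no source used here. Among all genes 0.824% were called at 4 h, 0.369% lower and 0.455% higher.

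With all libraries both genes were also called by DESeq2 (adjusted p = 0.00359 and 0.00853) and by limma-voom (0.0376 and 0.0392). Both edgeR calls were lost without vehicle replicate 4, where the log2 values were -0.62 for Adgre4 (adjusted p = 0.0521) and -0.73 for Clec4a3 (adjusted p = 0.0967). Adgre4 was also not called without vehicle replicate 3 or any of MitoCDNB replicates 2 to 6, and Clec4a3 without vehicle replicates 2 or 3 or any of MitoCDNB replicates 2 to 6. Over the 12 single omissions the adjusted p ran from 0.0201 to 0.0861 for Adgre4 and from 0.00807 to 0.0967 for Clec4a3, and the log2 values stayed below 0.

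S100a9 was at 0.3, 1.04 and 2.04 CPM in vehicle and at 0.177, 0.373 and 0.802 CPM in MitoCDNB at 4 h, and S100a8 at 0.133, 0.755 and 2.3 against 0.236, 0.402 and 0.832 CPM. For both the groups overlapped, vehicle replicate 5 being the lowest of its group. The log2 values were -1.52 for S100a9 (SE 0.388, adjusted p = 0.0596) and -1.15 for S100a8 (SE 0.5, adjusted p = 0.284). S100a9 was called when vehicle replicate 1 (adjusted p = 0.0361), vehicle replicate 5 (0.0277) or MitoCDNB replicate 2 (0.0332) was left out, and not in the other 9 single omissions, with a range of 0.0277 to 0.145. By DESeq2 it was called with all libraries (log2 -1.53, adjusted p = 0.00563), and by limma-voom it was not (log2 -1.67, adjusted p = 0.0866). Without vehicle replicate 4 its value was -1.57 (adjusted p = 0.078).

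The log2 values of 30 of the 33 genes were below 0 at 4 h, with a median of -0.36, beside 51.1% of all genes and a median of -0.0. Without vehicle replicate 4 the number was 22 and the median -0.15. Marco had the largest value, -2.67 (SE 0.775, adjusted p = 0.105), which became -0.41 (adjusted p = 0.61) without that library. Without vehicle replicate 1 Marco was called (log2 -2.88, adjusted p = 0.0483), and its adjusted p over the single omissions ran from 0.0483 to 0.61. Adgre1 moved from -1.10 to -0.17, Irak3 from -1.31 to -0.18, Spic from -1.11 to 0.16 and Timd4 from -0.41 to 0.11, none of them called in either case. Vsig4, the complement receptor CRIg, which binds C3b on opsonised bacteria, was at 12.4, 15.4 and 22.7 CPM in vehicle and at 9.98, 12.6 and 15.1 CPM in MitoCDNB (log2 -0.36, adjusted p = 0.129; -0.24 without vehicle replicate 4). The groups overlapped. Clec4f differed by 0.0 and the C1q chains by -0.22 to -0.16. Cd14 was at 1.47 to 8.49 CPM in vehicle and 3.26 to 8.12 CPM in MitoCDNB, overlapping, with a log2 value of 0.52 (adjusted p = 0.538) and 0.93 without vehicle replicate 4 (adjusted p = 0.167). No gene of the 33 was separated between the groups in either direction, with or without that library, beside 0.578% of all genes higher and 0.318% lower with it, and 0.882% higher and 0.528% lower without it.

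**Figure D4:**
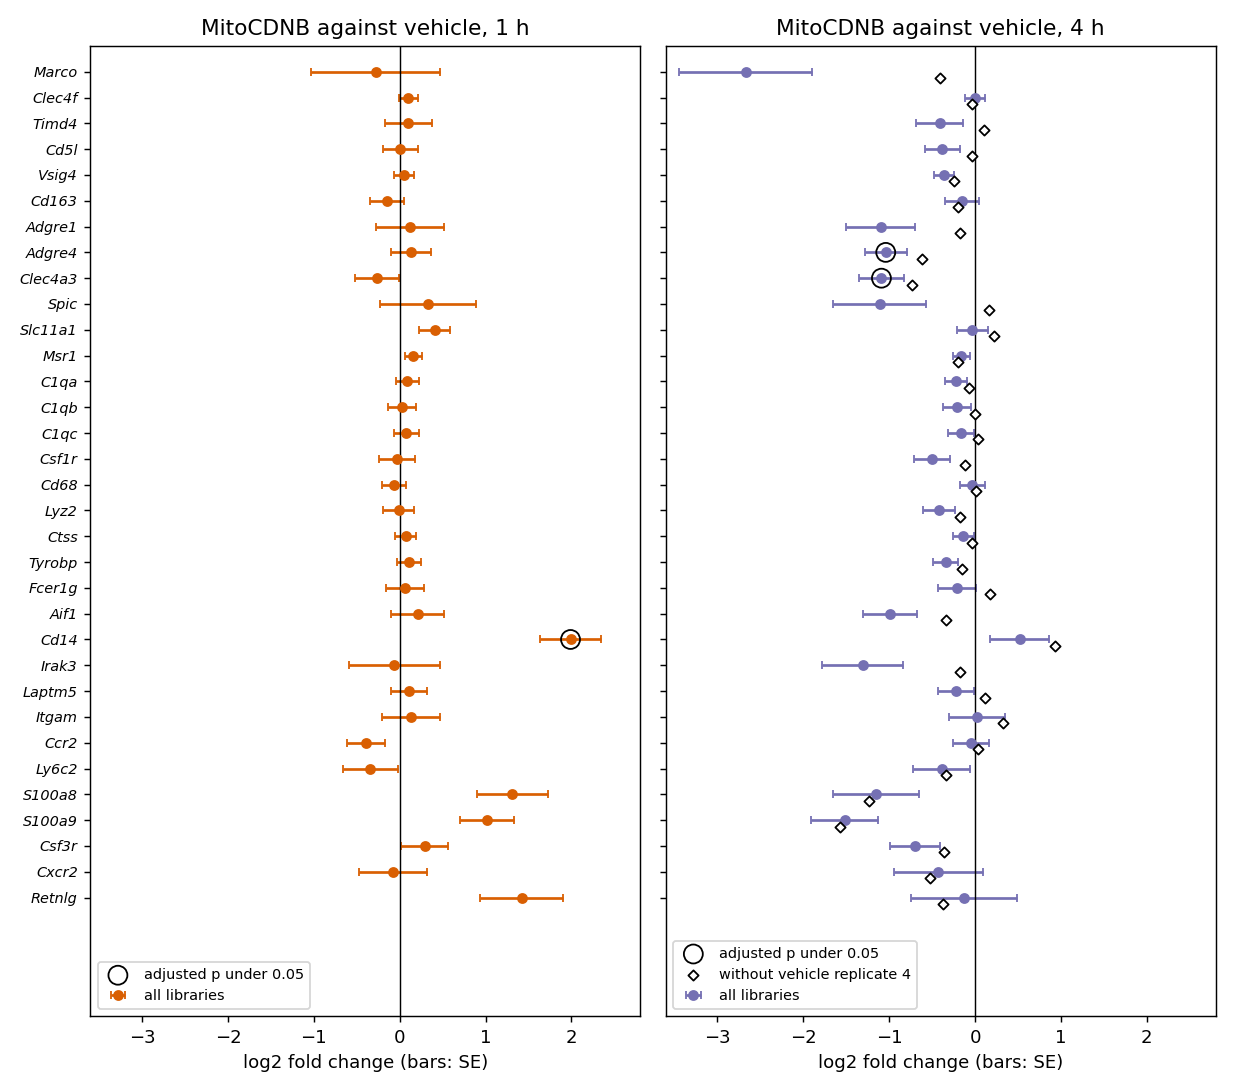
Log2 fold change of MitoCDNB against vehicle for the 33 genes tested, at 1 h (left) and 4 h (right), with the SE as bars and a ring round genes with an adjusted p under 0.05. Open diamonds give the value of 4 h without vehicle replicate 4, which lies nearer to 0 for Marco (-0.41), Adgre1 (-0.17) and Irak3 (-0.18).

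The difference between the effects at 4 h and at 1 h was called for S100a9 and S100a8. The log2 values of S100a9 were 1.02 at 1 h and -1.52 at 4 h, neither of them called by edgeR and both called by DESeq2, a difference of -2.54 (SE 0.501, adjusted p = 0.00342). For S100a8 they were 1.31 and -1.15, without a call by edgeR, a difference of -2.46 (SE 0.648, adjusted p = 0.0306). These 2 of 33 genes stand beside 4.07% of all genes called, 1.69% lower and 2.38% higher. S100a9 was called in all 24 single omissions (adjusted p 0.000512 to 0.00854) and in all 14 other alternatives, the highest adjusted p being 0.0476. S100a8 lost the call without vehicle replicates 1 or 2 or MitoCDNB replicates 3, 4 or 5 of 4 h, vehicle replicates 2 or 5 of 1 h, or MitoCDNB replicate 2 of 1 h. Its adjusted p over the 24 single omissions ran from 0.00794 to 0.0684, and its difference from -2.71 to -2.08. Of the 14 other alternatives S100a8 was called in 9, the highest adjusted p being 0.173, and in neither set of 1 h replicates alone. Without vehicle replicate 4 of 4 h the differences were -2.59 for S100a9 and -2.53 for S100a8, both called. The CPM ratio of S100a9 to S100a8 within a library was 0.645 to 1.01 in MitoCDNB at 1 h and 0.444 to 1.5 in MitoCDNB at 4 h.

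The other neutrophil genes differed in the same direction without a call: Retnlg by -1.55 (adjusted p = 0.323), Csf3r by -0.98 (0.194) and Cxcr2 by -0.35 (0.853). Cd14 differed by -1.47 (SE 0.49, adjusted p = 0.106) and was not called without any single library. Adgre4 differed by -1.17 (adjusted p = 0.0506) and was called in 7 of the 24 single omissions. These were those of vehicle replicates 1, 2, 4, 5 and 6 and MitoCDNB replicate 1 of 4 h and of vehicle replicate 3 of 1 h. With all libraries DESeq2 (-1.17, adjusted p = 0.0167) and limma-voom (-0.98, adjusted p = 0.0233) called it. Without vehicle replicate 4 the difference was -0.74 (adjusted p = 0.0362), and the range over the 24 was 0.0244 to 0.0876.

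Between the vehicle groups, Irak3 was the only one of the 33 genes called. It was at 0.454, 0.564 and 0.664 CPM at 1 h and at 0.733, 0.917 and 7.08 CPM at 4 h, without overlap, with replicate 4 far above the other 5 libraries of 4 h. Irak3 (chromosome 10, 120141648 to 120202130) was higher at 4 h (log2 1.77, SE 0.485, adjusted p = 0.034). Among all genes 5.44% were called, 2.99% higher and 2.46% lower. By the library numbers in the titles, all libraries of 4 h come before those of 1 h. Time and library order therefore cannot be told apart between the vehicle groups. Without overlap, 1.3% of all genes were higher and 1.2% lower, and of the 33 genes 1 was higher and 0 lower. Without vehicle replicate 4 of 4 h the log2 value was 0.63 (adjusted p = 0.159), and the call was also lost without any single vehicle library of 1 h. Over the 12 single omissions the adjusted p ran from 0.0228 to 0.159. The same omission turned Aif1 from 0.06 (adjusted p = 0.951) to -0.59 with a call (adjusted p = 0.0428; range over the single omissions 0.0428 to 0.997). Of the 33 genes 12 were below 0 with all libraries, with a median of 0.05, and 31 without replicate 4, with a median of -0.23, beside 50.4% of all genes. Cxcr2 was at 0.207 to 0.559 CPM at 1 h and 0.0 to 0.408 CPM at 4 h (log2 -1.24, adjusted p = 0.0996). Without vehicle replicate 2 of 4 h it was called (log2 -1.7, adjusted p = 0.0265; range 0.0265 to 0.197). One vehicle library of 4 h had 0 reads of Cxcr2, which allows up to 0.0999 CPM.

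Among genes of the same cells outside the 34, 23 other Kupffer cell genes were tested. At 4 h 1 of them, the mannose receptor Mrc1, was lower, at 29.0, 34 and 37.6 CPM in vehicle and 21.4, 25 and 27.0 CPM in MitoCDNB, without overlap. Mrc1, which is also made by the sinusoidal endothelium, fell by 0.43 (SE 0.0867, adjusted p = 0.0142) and was called in all 12 single omissions (highest adjusted p 0.0426). Of 12 liver endothelial genes, 4 were called lower and 1 higher at 4 h, among them Clec4g (log2 -0.48, adjusted p = 0.00515) and Ehd3 (log2 -0.44, adjusted p = 0.00515), both markers of the sinusoidal endothelium and called in all 12 single omissions. The gene called higher was Lyve1, a hyaluronan receptor (log2 1.34, adjusted p = 0.0389), which lost the call without vehicle replicates 2, 4, 5 or 6 or MitoCDNB replicates 2, 4 or 5 (highest adjusted p 0.0893). The 12 genes summed to 316 to 376 CPM in vehicle and 305 to 369 CPM in MitoCDNB, and their part in the Mrc1 result was not tested. The median of the Kupffer cell list was -0.12 with 17 of 23 below 0, and at 1 h it was -0.0 with no call by edgeR or DESeq2, 3 genes at an unadjusted p under 0.05 and 1 call by limma-voom. Of 21 other neutrophil genes 8 were tested, and edgeR called none at 1 h (2 had an unadjusted p under 0.05, DESeq2 called 0 and limma-voom 2). At 4 h it also called none (1 at an unadjusted p under 0.05; 0 by both other tools), with a median of -0.63. Of 16 other monocyte genes 10 were tested, with medians of 0.02 at 1 h and 0.12 at 4 h. EdgeR and limma-voom called none of them at either time (0 and 3 at an unadjusted p under 0.05), and DESeq2 called 0 and 1.

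Among myeloid transcription factors, Klf4, a factor of monocyte differentiation that endothelium also expresses, rose at 1 h. It was at 1.03 to 3.17 CPM in vehicle and 5.19 to 8.16 CPM in MitoCDNB (log2 1.69, SE 0.342, adjusted p = 0.00252). Klf4 was called in all 12 single omissions (highest adjusted p 0.00785) and in 12 of 14 other alternatives. The difference between the times was called for Klf4 (-2.93) and for Runx1 (-1.45), a factor of blood cell formation, in all 24 single omissions each (highest adjusted p 0.00399 and 0.0461). Of 20 genes of Fc receptor, ITAM and Toll signalling, Irak2, a kinase of the Toll pathway, rose at 1 h (log2 0.55, adjusted p = 0.0032) and Tlr4, the receptor that works with Cd14, fell by 0.87 (adjusted p = 0.00642). Tlr4 was at 0.758 to 1.3 CPM in vehicle and 0.441 to 0.653 CPM in MitoCDNB, without overlap. Irak2 and Tlr4 were called in all 12 single omissions (highest adjusted p 0.0126 and 0.0225). Of the other alternatives, Irak2 was called in 12 of 14 and Tlr4 in 11 of 13. Of 10 chemoattractant genes tested, Cxcl1, which draws neutrophils, was lower at 1 h (log2 -4.37, adjusted p = 0.0384). Vehicle replicate 1 alone was at 182 CPM and the vehicle median at 3.31 CPM, against 1.17 to 2.85 CPM in MitoCDNB. Without that library the value was -2.29 (adjusted p = 0.253). Its call was also lost without vehicle replicate 2 or any 1 of the 6 MitoCDNB libraries.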

How the data were processed

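Per the labels' protocol, polyA RNA went into libraries by a NEBNext Ultra kit. The deposited values are raw counts per gene symbol and library made by the authors. CASAVA 1.8.4, Trim Galore, HISAT2, DESeq2 and build mm10 are named in the submitters' processing notes; the counting tool, annotation, strand setting and handling of shared reads are stated in no source used here. Near-identical and overlapping genes are therefore uncertain. Each library is 1 mouse, as the labels' protocol reads.

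The table held 24421 genes, 4653 of them without a count. The function filterByExpr of edgeR 4.0.16 (minimum count 10, minimum total 15; R 4.3.3) kept 13833 genes and left out 0.0306% of counts. Group means of all 24 libraries were compared with the robust quasi-likelihood F test on counts with TMM scaling and Benjamini-Hochberg adjustment over all genes tested and calls at an adjusted p under 0.05. Simulated counts with seeded changes served to check it. Library sizes set the counting precision, and floors of 3 counts cover counting error only. Positions and exon lengths are from GENCODE M21 (GRCm38), by symbol.

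The 34 genes and the lists were chosen with earlier results of these data known. All 34 are accounted for, genes called in any comparison in full. Of other genes, up to 3 called genes with the smallest p are named per list and comparison, except that 1 gene is not reported here. Promoters are shown for S100a8, S100a9, Adgre4 and Clec4a3, and not for the other called genes, Cd14 and Irak3. Alternatives were other size factors (RLE, upper quartile), no count filter or a mean CPM of at least 1, DESeq2 1.42.0, voom of limma 3.58.1 with quality weights, no robust estimation, the compared groups alone, a replicate block, a term for the 1 h replicates 4 to 6 and fits within them and within replicates 1 to 3, no major urinary protein genes, and leaving out libraries singly or together.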

Additional observations from a re-analysis of the deposited data

Results flagged for a closer look

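In a group of 6, a library was marked where its gap to the nearest of the others was, as a share of the group's range, above Dixon's 95% critical value. Chance marks about 1 in 20 groups. Of 136 groups of single genes 20 were marked, 15 of them through vehicle replicate 4 of 4 h, which was the highest of its group each time.

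In that library Marco was at 90.8 CPM, the next library being at 5.31. Timd4 was at 13.8 CPM (next 5.31), Cd5l at 147.0 (62.1), Adgre1 at 66.5 (14), Adgre4 at 11.1 (4.78), Clec4a3 at 3.32 (1.67) and Spic at 6.78 (1.16). These are Kupffer cell genes. Of complement, C1qb was at 52.9 CPM (30.7) and C1qc at 57.5 (35.5). Of the general myeloid genes, Csf1r was at 91.2 CPM (38.8), Tyrobp at 11.3 (7.44), Fcer1g at 12.2 (5.42), Aif1 at 7.87 (2.03), Irak3 at 7.08 (0.969) and Laptm5 at 33.6 (14.7). The sums of the lists were marked as well, at 458 CPM for the Kupffer cell genes (next 234), 167 for the C1q chains (106) and 272 for the general myeloid genes (141).

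The other marked libraries differed from gene to gene. In vehicle replicate 3 of 1 h, Marco was at 12.3 CPM (next 6.78) and Spic at 1.8 CPM (0.827), the highest of 6. Tyrobp in vehicle replicate 4 of 1 h was the lowest, at 5.85 CPM (next 6.96). Cd68 in MitoCDNB replicate 6 of 4 h was the highest at 6.32 CPM (4.82), and Itgam in MitoCDNB replicate 2 of 1 h at 1.89 CPM (1.08).

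The effect of MitoCDNB differed between 4 h and 1 h by -2.46 (log2) for S100a8 and by -2.54 for S100a9, by the test of the difference itself (edgeR, adjusted p = 0.0306 and 0.00342).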

How the results depend on the processing

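The counts of calls among the 33 genes were small and moved with most settings, and the cause was not tested. Those by DESeq2 are out of 31 genes, without Marco and Adgre1. At 1 h, where 1 was called, the count was 2 with a mean CPM filter, without the 2 libraries of 4 h that stand apart (vehicle replicate 1 and MitoCDNB replicate 2) and with a term for replicates 4 to 6, 3 by DESeq2, 4 by limma-voom and by the groups alone, 0 within replicates 1 to 3 (fewer samples), and 1 to 4 in single omissions (most without vehicle replicate 6, adding Retnlg, S100a8 and S100a9; 2 without replicate 3). At 4 h, where 2 were called, it was 3 by DESeq2 (adding S100a9), 2 by limma-voom, 1 with no count filter, 0 with the groups alone, and 0 to 4 in single omissions, 4 being without vehicle replicate 1, 1 without vehicle replicate 2 or MitoCDNB replicate 2, and 0 without vehicle replicates 3 or 4 or MitoCDNB replicates 3 to 6. For the difference (2) it was 3 by DESeq2 (adding Adgre4), 5 by limma-voom, 1 with no count filter, without the 2 libraries, and within either set of 1 h, and 1 to 3 in single omissions. Between the vehicle groups (1) it was 1 by DESeq2 and 0 with no count filter, the mean CPM filter, limma-voom, the groups alone, the 1 h term and within either set of 1 h, and 0 to 2 in single omissions. In a fit chosen after seeing the data, without vehicle replicates 1 and 4 and MitoCDNB replicate 2 of 4 h, it was 1 at 4 h, 1 for the difference and 0 between the vehicle groups.

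Of all genes, 909 were called at 1 h, 244 within replicates 1 to 3 and 256 within 4 to 6; single omissions gave 720 to 838. At 4 h (114) DESeq2 called 348, limma-voom 227, the groups alone 18 and the fit without the 2 libraries 247, and single omissions 63 to 412. Without vehicle replicate 1 the count was 412, without vehicle replicate 2 65 and without vehicle replicate 5 73; without MitoCDNB replicate 3 it was 63, and 72 without replicate 4 or 5. For the difference (563) limma-voom called 930, and the sets of 1 h 150 and 275; single omissions gave 439 to 696. Between the vehicle groups (753) the groups alone gave 415 and the sets of 1 h 177 and 309; single omissions gave 480 to 749, with 500 without replicate 5 and 480 without replicate 6 of 1 h. The value of Aif1 there was -0.59 to 0.19 in single omissions, with -0.59 without vehicle replicate 4 of 4 h.

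Replicate numbers did not pair the libraries: deviations of same-numbered libraries correlated at -0.0666 to 0.212 at 1 h (1 of 6 pairs over 0.1) and at -0.213 to 0.265 at 4 h (3 of 6), and 2 of 6 libraries at each time matched their own number best. With a replicate block, 4 genes were called at 1 h (Retnlg, Cd14, S100a8 and S100a9), 0 at 4 h and 2 for the difference, and the difference of Runx1 was not called. The block could not be fitted between the vehicle groups, as replicate numbers are nested in time. Fits on the groups alone do not apply to the difference, nor sets of 1 h to the comparison at 4 h. Genes under about 3 counts, such as Cxcr2, Mmp8 and Retnlg in some libraries, are limited by depth.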

Other observations

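Among markers of other leukocytes, 4 T and natural killer cell genes were tested at 1 h, and 1 of them was called. Gzma, a granule protease of cytotoxic lymphocytes, was at 0.0689, 0.207 and 0.484 CPM in vehicle and at 0.327, 0.601 and 1.73 CPM in MitoCDNB (log2 1.59, SE 0.409, adjusted p = 0.0162, edgeR). The groups overlapped. The call was lost without MitoCDNB replicate 6 (log2 1.13, adjusted p = 0.087, the highest of the 12 single omissions). Of 8 dendritic cell genes tested, Xcr1, a chemokine receptor of cross-presenting dendritic cells, was lower in MitoCDNB, at 0.104, 0.372 and 0.634 CPM in vehicle and 0.0707, 0.0847 and 0.181 CPM in MitoCDNB (log2 -1.7, adjusted p = 0.0155). Most MitoCDNB libraries were near the floor of 3 counts, and the call was lost without vehicle replicate 6 (adjusted p = 0.0524).

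Between the vehicle groups, 3 of 23 other Kupffer cell genes were called. Hpgd, which breaks down prostaglandins, was lower at 4 h (log2 -0.51, adjusted p = 0.0128) and was called in all 12 single omissions. Mertk, a receptor for the clearance of dying cells, was higher (log2 0.41, adjusted p = 0.0267) and was called in 6 of 12, not without vehicle replicates 4, 5 or 6 of 1 h or 1, 3 or 4 of 4 h. Id3, a regulator of Kupffer cell identity, was higher (log2 0.85, adjusted p = 0.0498) and was called in 2 of 12, those without replicate 3 of either time. The highest adjusted p in these omissions was 0.0744 for Mertk, without vehicle replicate 6 of 1 h, and 0.134 for Id3, without vehicle replicate 6 of 4 h.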
